A study of Mus musculus with 32 samples.

Results

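Opposite-strand lncRNAs are long non-coding RNA genes that the mouse annotation names after the gene on the other DNA strand, by adding os or os and a digit to its symbol. The gene named without that ending is called the sense gene here. Members were all listed genes with such a symbol and the biotype antisense, lincRNA, processed_transcript, sense_overlapping or bidirectional_promoter_lncRNA. This gave 284 members of 49671 listed genes, 257 of them antisense, 14 lincRNA, 12 processed_transcript and 1 bidirectional_promoter_lncRNA. Of 319 genes with the ending, 35 had another biotype and were left out. A sense gene was listed for 282 members, and because 30 sense genes had more than 1 lncRNA, these were 241 different genes.

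RNA was measured in the vomeronasal organ (VNO) neuroepithelium, the tissue whose sensory neurons detect pheromones, of 32 mice, each of 42 days and with no treatment named. The labels give the strains C57/BL6 (B6), 129S6/SVEV (129), SJL/J (SJL) and SWR/J (SWR), with 4 females and 4 males of each, and every library came from a single mouse. The study's text names the 129 mice 129Sv/J, another substrain, and which of the names is right is not settled here. All are inbred strains with no engineered allele named, so that strain stands for the whole genetic background and for anything else that differed between the colonies. Libraries held 5106398 to 18640871 counted reads. The members took 1069.62 to 1637.24 of them as counts scaled to library size (CPM).

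Antisense transcripts can act on their neighbour in several known ways, for example by transcribing through its promoter, by pairing with its RNA or by recruiting chromatin proteins. Many others are made from a promoter that fires in both directions and have no known function. A lncRNA that starts close to its sense gene and points away from it is called divergent, and one that runs towards it is called convergent. In the GENCODE M21 annotation, 157 members overlapped exons of the sense gene, 80 overlapped only its span, 34 were divergent, 7 convergent and 4 apart, and 2 had no listed sense gene to place them by.

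The start regions of 6 lncRNAs, picked by hand from those called between strains, are shown as RefSeq promoter windows on GRCm38.p6. The windows run from 250 bases before the start to 50 after it. RefSeq windows were matched by symbol for 166 of the 284 members. Capitals mark the letters TATAAA of a TATA box, those of the CCAAT box and the letters GGGCGG of a GC box, searched on both strands. Mccc1os, Cyp4x1os and Pard3bos2 had large strain differences, Tmem51os1 is an exon-overlapping member with a GC-rich start, and Etaa1os and Atad3aos are divergent members that start 95 and 85 bases from their sense genes.
Mccc1os: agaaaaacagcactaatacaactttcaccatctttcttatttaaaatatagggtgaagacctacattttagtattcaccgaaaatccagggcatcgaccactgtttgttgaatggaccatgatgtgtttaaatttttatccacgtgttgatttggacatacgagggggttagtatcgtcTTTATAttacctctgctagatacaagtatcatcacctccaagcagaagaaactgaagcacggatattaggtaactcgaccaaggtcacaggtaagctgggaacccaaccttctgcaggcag
Cyp4x1os: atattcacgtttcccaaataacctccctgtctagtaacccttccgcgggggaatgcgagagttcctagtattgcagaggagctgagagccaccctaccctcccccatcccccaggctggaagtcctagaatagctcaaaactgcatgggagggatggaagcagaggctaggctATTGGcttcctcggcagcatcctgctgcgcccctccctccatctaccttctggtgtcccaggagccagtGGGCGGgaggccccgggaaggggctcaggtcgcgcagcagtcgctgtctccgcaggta
Pard3bos2: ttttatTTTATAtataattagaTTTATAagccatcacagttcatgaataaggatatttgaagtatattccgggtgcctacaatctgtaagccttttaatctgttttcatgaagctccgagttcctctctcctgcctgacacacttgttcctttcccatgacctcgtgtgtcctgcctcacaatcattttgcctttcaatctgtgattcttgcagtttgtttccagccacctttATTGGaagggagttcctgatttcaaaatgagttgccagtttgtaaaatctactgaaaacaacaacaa
Tmem51os1: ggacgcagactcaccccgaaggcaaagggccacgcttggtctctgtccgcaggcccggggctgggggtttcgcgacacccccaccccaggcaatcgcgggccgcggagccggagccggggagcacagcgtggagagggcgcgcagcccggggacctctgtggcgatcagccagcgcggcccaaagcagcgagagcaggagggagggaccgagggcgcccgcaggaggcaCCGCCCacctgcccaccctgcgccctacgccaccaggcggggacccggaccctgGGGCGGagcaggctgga
Etaa1os: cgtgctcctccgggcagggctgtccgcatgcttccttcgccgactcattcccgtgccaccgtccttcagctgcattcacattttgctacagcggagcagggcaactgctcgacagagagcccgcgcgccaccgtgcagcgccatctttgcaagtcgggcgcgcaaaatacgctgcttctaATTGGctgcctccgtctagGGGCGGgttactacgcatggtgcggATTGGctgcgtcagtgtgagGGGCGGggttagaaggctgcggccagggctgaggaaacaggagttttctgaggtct
Atad3aos: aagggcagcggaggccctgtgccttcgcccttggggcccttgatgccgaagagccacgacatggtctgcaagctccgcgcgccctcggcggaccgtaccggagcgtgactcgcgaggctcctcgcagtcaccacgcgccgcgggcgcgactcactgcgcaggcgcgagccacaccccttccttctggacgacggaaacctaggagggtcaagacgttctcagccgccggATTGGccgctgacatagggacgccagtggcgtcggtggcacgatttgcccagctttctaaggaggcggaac
The windows lie at chr3:35999663-35999962 (plus strand) for Mccc1os, chr4:115133582-115133881 (plus strand) for Cyp4x1os, chr1:62136060-62136359 (minus strand) for Pard3bos2, chr4:142084048-142084347 (plus strand) for Tmem51os1, chr11:17953720-17954019 (plus strand) for Etaa1os and chr4:155760942-155761241 (plus strand) for Atad3aos. The RefSeq start equals the GENCODE start for Cyp4x1os, Pard3bos2 and Etaa1os, and lies 80 bases from it for Mccc1os, 14 for Atad3aos and 326 for Tmem51os1. The windows hold 7 CpG dinucleotides in Mccc1os, 12 in Cyp4x1os, 3 in Pard3bos2, 30 in Tmem51os1, 25 in Etaa1os and 35 in Atad3aos, against a median of 7 over all 32851 promoters of the table. The median was 17 over the windows of 56 tested members and 8.5 over those of 16 members called between strains. TATAAA was found in 13.6% of all promoters, CCAAT in 37.4% and GGGCGG in 35.7%. Of the 56 windows of tested members, 6 held TATAAA, 20 CCAAT and 30 GGGCGG. These matches describe letters and not sites in use.

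Most members were close to silent in the VNO. Each had a read in at least 1 library, but 193 never exceeded 10 reads in any library and 75 had a read in all 32. After the filter on low counts, 80 members and 193 sense genes were tested, and for 76 members both genes of the pair were. The 204 members that were not tested reached at most 1.54 TPM (reads scaled by exon length and library) as a mean over libraries. Their summed reads had a median of 8.0 CPM in 129 libraries, 24.1 CPM in B6 libraries, 16.7 CPM in SJL libraries and 14.5 CPM in SWR libraries. Genes of families with no known role in this tissue, summed as a measure of background reads, had medians of 1.11, 9.41, 5.81 and 4.95 CPM in the same order. Single 129 libraries had 0.524 to 2.60 CPM of such reads, against 2.37 to 40.8 in B6 and 3.10 to 13.3 in SJL. In fits with background reads as a covariate, strain and background can therefore hardly be told apart where B6 or SJL is compared with 129. The part of background reads in the levels of the weakest members was not tested.

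Levels of the tested members spanned more than 3 orders of magnitude (the plot of lncRNA against sense TPM). Their median was 3.93 TPM, against 12.5 TPM for their sense genes, and the median ratio of lncRNA to sense was 0.296. There were 23 members above their sense gene in TPM and 20 below 0.1 of it. The part of sense gene reads counted on the wrong strand in the levels of weak members was not tested. Pard3bos2, which lies inside the span of the cell polarity gene Pard3b without touching its exons, had the highest level with 253 TPM, which was 31.2 times that of Pard3b. Tmem74bos followed with 206 TPM, and Dlx6os1 (also known as Evf2, a regulator of the Dlx5 and Dlx6 homeobox genes) with 202 TPM. Fam120aos reached 81.3 TPM beside 129.664 TPM of Fam120a, and Dlx4os 43.4 TPM beside 27.0 TPM of the homeobox gene Dlx4. Brip1os had the highest ratio among pairs with both genes tested, with 10.7 TPM against 0.315 TPM of the DNA helicase gene Brip1. Rab26os had a ratio of 12.6 and Kcnab3os of 5.88. Sense genes that share exons with a neighbour on their own strand lose the shared reads in this kind of counting: 76.0% of the exon length of Tomm6 and 60.0% of that of Tnfsf13 is shared in this way, so that the ratios of these pairs are too high by an unknown amount.

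**Figure D1:**
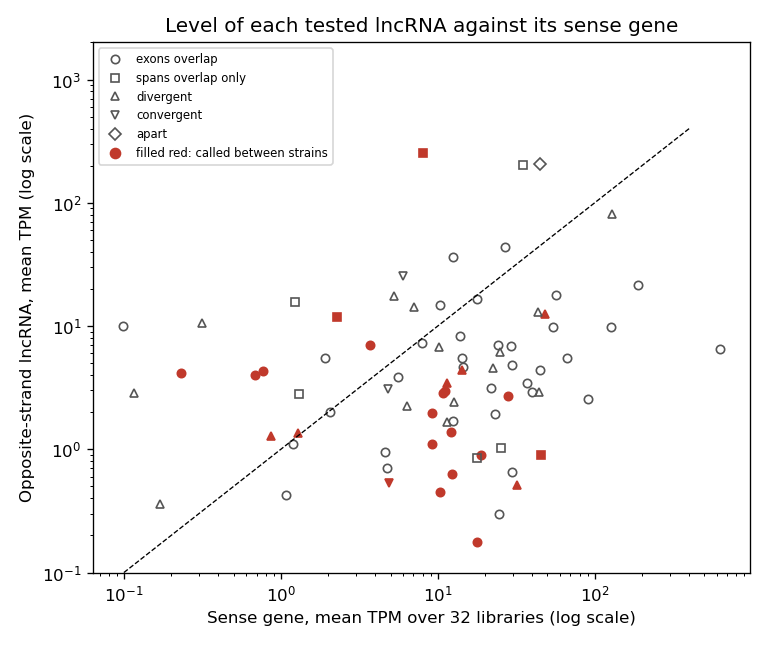
Mean TPM over 32 libraries of each of 80 tested lncRNAs (y axis, log scale) against its sense gene (x axis, log scale), with the arrangement of the pair as the symbol and members called between strains filled in red. The dashed line marks equal levels, and 23 members lie above it.

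Apart from Pard3bos2, the most abundant members differed among strains by less than 2-fold. Dlx6os1, with 172909 reads in all, had normalized counts (reads divided by the size factor of the library) with a lowest, median and highest of 3810, 4629 and 5152 in 129. In B6 these were 5137, 5999 and 7340, in SJL 3896, 4361 and 4564, and in SWR 5385, 5913 and 6479. B6 and SWR were thus above SJL without overlap, and the log2 fold change (LFC) of SJL against B6 was -0.53 ± 0.06 (SE, FDR 2.91e-08, edgeR quasi-likelihood test, n = 8 mice a strain), short of the 2-fold limit. Tmem74bos differed by no more than 0.25 in LFC in any strain pair. Fam120aos was lowest in B6 (LFC against 129 of -0.41 ± 0.07, FDR 1.13e-05). Brip1os was higher in B6, where its 8 libraries lay between 487.1 and 532.5, than in the other strains, whose libraries lay between 257.8 and 345.3 (LFC against 129 of 0.78 ± 0.05).

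Strains were compared in 6 pairs, and a gene was called at an absolute LFC above 1 and an FDR below 0.05. At least 1 pair called 24 of the 80 tested members (30%), where 19.8% of all 18382 tested genes were called. A weak gene that passed the filter on low counts only through the strain where it is high was bound to differ, so the share is a description. By pair, 10 members were called in B6 against 129 (background 11.1%), 10 in SJL against 129 (8.38%), 9 in SWR against 129 (7.73%), 11 in SJL against B6 (7.99%), 11 in SWR against B6 (8.05%) and 7 in SWR against SJL (4.5%). Among the sense genes, 33 of 193 were called in at least 1 pair. The median of the largest absolute LFC was 0.56 over the members, 0.48 over the sense genes and 0.44 over all tested genes.

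Mccc1os had the largest difference of all members. It lies on chr3:35999833-36025106, plus strand, and 198 bases of its exons overlap Mccc1, which codes for a subunit of the mitochondrial enzyme of leucine breakdown. Its normalized counts had a lowest, median and highest of 25.5, 34.05 and 50.03 in 129, 25.2, 34.8 and 43.9 in B6, and 17.0, 28.4 and 37.3 in SJL. In SWR they were 177, 200.4 and 227, so that every SWR library lay above every library of the other strains. SWR exceeded SJL by an LFC of 2.83 ± 0.13 (FDR 1.82e-18), a 7.09-fold difference. Mccc1 was also highest in SWR, with libraries between 654.0 and 816.4 against 326.2 to 558.0 in the other strains, but the LFC of SWR against SJL was 0.92 ± 0.07 (FDR 2.93e-12) and below the 2-fold limit.

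Cyp4x1os split the strains into pairs. This lncRNA (chr4:115133832-115137864, plus strand) overlaps 450 exonic bases of Cyp4x1, a cytochrome P450 gene. Its lowest, median and highest normalized counts were 3.20, 9.46 and 14.0 in 129 and 6.68, 13.5 and 22.3 in B6. They were 28.3, 39.2 and 55.3 in SJL and 43.4, 48.0 and 53.3 in SWR, with no overlap between the former and the latter strains. SWR exceeded 129 by 2.38 ± 0.23 (FDR 1.36e-10), and SJL exceeded 129 by 2.18 ± 0.23 (FDR 1.24e-09). Cyp4x1 went the other way, with medians of 289 in 129 and 240 in B6 against 190 in both SJL and SWR (LFC of SWR against 129 of -0.56 ± 0.07, FDR 4.37e-08).

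Pard3bos2 was called at the highest level. Normalized counts were 825, 914 and 1223 (lowest, median and highest) in 129, 1123, 1592 and 1742 in B6, 710, 986 and 1164 in SJL and 415, 540 and 596 in SWR. Every SWR library was below every library of the other strains, and SWR fell short of B6 by an LFC of -1.52 ± 0.08 (FDR 1.09e-16). Pard3b differed by 0.27 ± 0.06 in the opposite direction in the same pair.

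**Figure D2:**
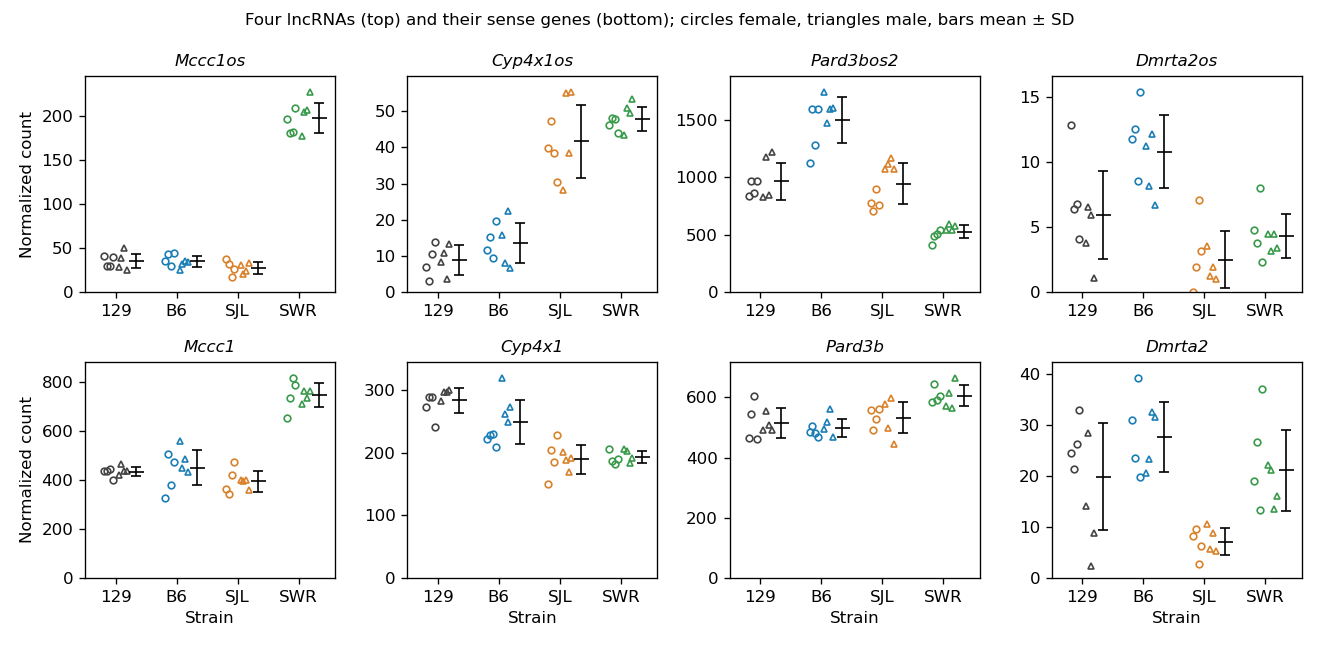
Normalized counts per library (y axis) by strain (x axis) of Mccc1os, Cyp4x1os, Pard3bos2 and Dmrta2os in the upper row and of their sense genes in the lower row. Circles are females, triangles males and bars the mean ± SD of 8 libraries, and the SWR libraries of Mccc1os (177 to 227) stand above all others.

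Among divergent pairs, which can share a promoter region, both outcomes occurred. Dmrta2os starts 240 bases from Dmrta2, a transcription factor gene of forebrain development, and both were low in SJL. Dmrta2os was weak in every strain, with at most 15.4 normalized counts in a library. The lncRNA had a median of 11.5 in B6 and 1.95 in SJL, with 6.18 in 129 and 4.12 in SWR, with an LFC of SJL against B6 of -2.12 ± 0.36 (FDR 1.28e-05), and Dmrta2 an LFC of -1.91 ± 0.30 (FDR 2.52e-06). Plekhd1os, 125 bases from Plekhd1, was lower with it in SWR than in 129 (-1.20 ± 0.34 and -1.04 ± 0.27). Without the 2 libraries described below that stood apart, Plekhd1os did not pass the filter on low counts and Plekhd1 was not called (-0.84, FDR 0.00485), and with background reads as a covariate Plekhd1os was not called (-1.01, FDR 0.0733). Atad3aos, 85 bases from the mitochondrial membrane ATPase gene Atad3a, did not follow its sense gene. Its median was highest in B6 at 58.9, followed by 35.8 in 129, 24.2 in SJL and 18.2 in SWR (SWR against B6 -1.44 ± 0.17, FDR 1.77e-08), while Atad3a differed by 0.12 ± 0.07 (FDR 0.204). Etaa1os was higher in B6 (17.2 to 29.8) than in 129 (6.55 to 16.6), with an LFC of 1.17 ± 0.20 (0.78, FDR 0.0595 and not called, with background reads as a covariate), and Etaa1, a replication stress gene, had an LFC of -0.17 ± 0.08 (FDR 0.0656). Lrp8os3, 197 bases from the lipoprotein receptor gene Lrp8, was higher in 129 (145 to 196) than in B6 (64.8 to 109), with an LFC of B6 against 129 of -1.05 ± 0.11, and Lrp8 was lower in B6 too (-0.54 ± 0.06, FDR 7.09e-09). Foxo6os, which starts 4001 bases from the transcription factor gene Foxo6, was lower in SJL than in 129 (-1.54 ± 0.38, FDR 0.00139), as was Foxo6 with a smaller LFC (-0.44 ± 0.09, FDR 0.000239). Foxo6os was weak, with a mean of 0.515 TPM.

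Of the exon-overlapping members, Tomm6os was higher in SWR (93.8 to 149) than in the other strains (23.6 to 62.8), and the LFC against B6 was 1.87 ± 0.14 (FDR 5.20e-13). Tmem51os1 had medians of 27.6 in SWR and 26.8 in 129 against 11.03 in B6 and 14.2 in SJL, and the LFC of SWR against B6 was 1.25 ± 0.17 (FDR 2.42e-07). Its sense gene Tmem51, a membrane protein gene, differed by -0.26 ± 0.10 in that pair. Tnfsf13os was lowest in 129, with 5.77 to 31.0 against 29.0 to 64.6 elsewhere, and Kcnab3os, opposite a potassium channel subunit gene, had a median of 4.00 in 129 against 12.7, 13.0 and 14.6 in B6, SJL and SWR. Notumos and the Wnt inhibitor gene Notum were both lower in SJL than in B6 (-1.43 ± 0.34 and -1.25 ± 0.13), and Prox2os and the homeobox gene Prox2 lower in SWR than in B6 (-1.13 ± 0.21 and -1.08 ± 0.24). Notumos shares 708 exonic bases with Notum and had 0.0438 of its TPM. The part of Notum reads counted on the wrong strand in the level of Notumos was not tested. The LFC of Prox2os was -0.92 (FDR 0.000917) with background reads as a covariate, just short of the limit. Igf2os lies opposite the imprinted growth factor gene Igf2 and rested on few reads, at most 13 in a library. It was lower in SWR than in B6 (-1.70 ± 0.44, FDR 0.00204). Igf2os shares 98 exonic bases with Igf2 and had 0.0099 of its TPM, so the limit given for Notumos holds here too. Arhgap33os, a convergent member with at most 17 reads in a library, had a median of 11.1 in B6 and 6.95 in SWR against 2.46 in 129 and 2.42 in SJL. Parvaos and Dnmt3bos overlap only the span of their sense genes. Parvaos was higher in SJL than in 129 (1.70 ± 0.36), and Dnmt3bos, at the DNA methyltransferase gene Dnmt3b, higher in SWR than in B6 (1.26 ± 0.15). Parvaos was weak, with a mean of 0.897 TPM, which was 0.0196 of that of Parva.

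For 23 called members the sense gene was tested too. In the strain pair with the largest difference of the lncRNA, the sense gene had the same sign in 13 pairs and the opposite sign in 10, and it was itself called in 4, those of Dmrta2, Notum, Plekhd1 and Prox2. The lncRNA calls of the Plekhd1 and Prox2 pairs depended on the choices of libraries or covariate given with them. That of the Notum pair has the untested limit of shared exons given with it. The sense gene was called in any strain pair for 5 of the 23. In the plot of both LFCs the sense gene has the smaller absolute LFC in all 23 pairs, for a strain pair picked by the lncRNA. The absolute LFC of the sense gene was above 0.5 in 10 of them, and its FDR was below 0.05 in 17.

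**Figure D3:**
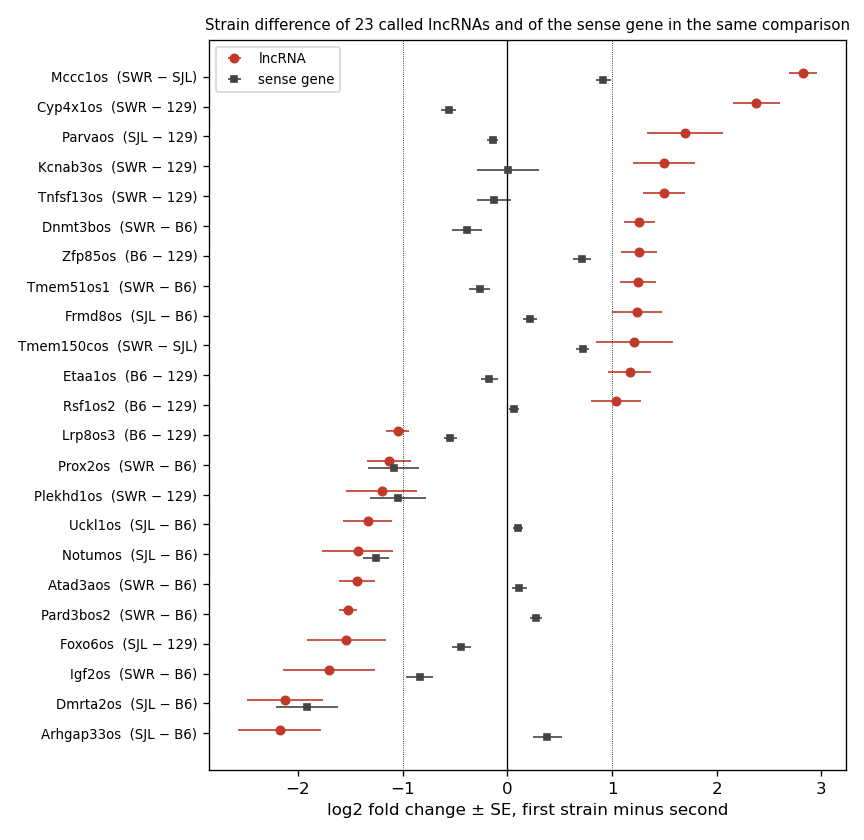
LFC ± SE (x axis, first strain minus second) of 23 called lncRNAs (circles) and of their sense genes (squares) in the strain pair named on the y axis, with dotted lines at the limit of 1. Only the sense genes of Dmrta2os, Notumos, Plekhd1os and Prox2os lie past that limit.

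Whether the 2 genes of a pair changed unequally was tested directly, as the difference among strains in log2 of the ratio of lncRNA to sense (normalized count + 1, limma). Of 76 pairs, 19 were called in at least 1 strain pair (absolute difference above 1, FDR below 0.05), where 21.2% of all 5165 opposite-strand pairs of tested genes were called, a share near that of the members. Cyp4x1os had the largest difference, 2.99 ± 0.26 between SWR and 129 (FDR 6.36e-12), followed by Arhgap33os with 2.62 ± 0.37 between B6 and 129 (FDR 2.46e-07). Mccc1os rose relative to Mccc1 by 1.91 ± 0.17 in SWR against SJL (FDR 1.43e-11). Pard3bos2 had a difference of -1.79 ± 0.09 in SWR against B6 (FDR 2.54e-18). In 5 of the 19 pairs the lncRNA itself was not called. One of them was Dlx4os, for which the ratio differed by 1.10 ± 0.07 between SWR and SJL (FDR 2.12e-15), with Dlx4os at medians of 316 and 296 and Dlx4 at 282 and 563.

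**Figure D4:**
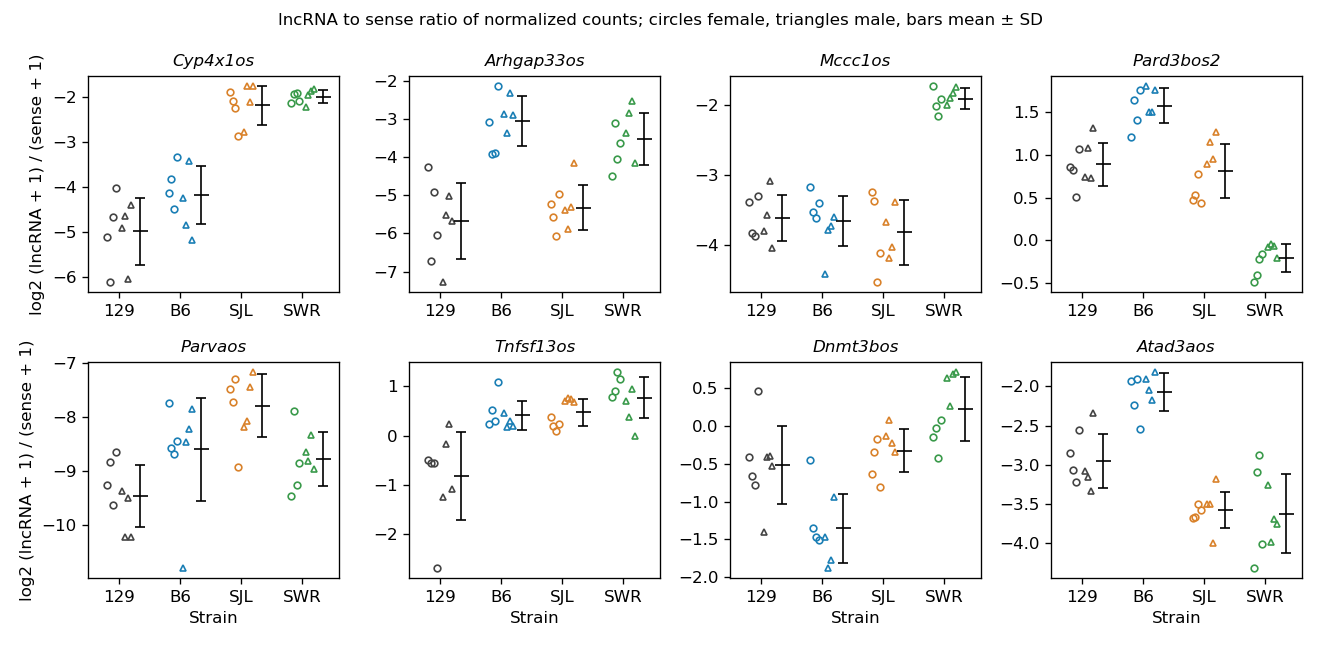
log2 of the lncRNA to sense ratio of normalized counts (y axis, 1 added to each) per library by strain (x axis) for the 8 pairs with the largest called differences. Circles are females, triangles males and bars the mean ± SD of 8 libraries, and Cyp4x1os separates SJL and SWR from 129 and B6.

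Many sense genes had a lncRNA too weak to test. This held for 27 of the 33 called sense genes (81.8%) and for 117 of all 193 tested ones (60.6%), and the difference between these shares was not tested. Nell1, a secreted factor gene of bone formation, had 17.3 to 35.8 normalized counts in SJL and 0 to 2.19 in 129, a fitted LFC of 5.03 ± 0.53 (FDR 1.52e-09) that depends on the prior count at such low levels, while Nell1os had 5 reads in the 32 libraries together. Nell1 could pass the filter on low counts only through strains where it is higher than in 129, so a difference was bound to appear. Pip5k1b, a lipid kinase gene, was lower in SWR (39.3 to 54.9) than elsewhere (89.2 to 196), with an LFC against B6 of -1.80 ± 0.10 (FDR 3.89e-16), and its lncRNA had 15 reads in all. Csmd2 was higher in B6 than in 129 (2.13 ± 0.38), and the homeobox gene Otx2 higher in SJL than in 129 (1.76 ± 0.39). With background reads as a covariate these LFCs were 0.51 (FDR 0.435) for Csmd2 and 1.21 (FDR 0.0676) for Otx2, and neither was called. Background reads follow strain in both comparisons, so this fit can hardly tell the effect of strain from that of background. Speer4c, Erich2 and Plet1 were called as lower in another strain than in 129 (-2.85 ± 0.85, -1.85 ± 0.67 and -1.76 ± 0.60), and each of these calls could be lost by leaving out 1 library. Without 129_male replicate 1 their LFCs were -1.31, -0.31 and -0.83 and none was called, and Erich2 was not called without SWR_male replicate 2 either. Without both 129_male replicate 1 and B6_female replicate 1, Speer4c was called (-1.30, FDR 0.0344).

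That library and B6_female replicate 1 stood apart. Their summed marker levels were 366 and 239.602 CPM for ciliated respiratory cells (5 of 5 genes listed), against 21.7 to 91.0 in the other 30 libraries, and 8981 and 9099 for glands (5 of 5 listed), against 258 to 4708. Markers of mature vomeronasal sensory neurons ranged from 2026 to 3067 over all libraries, with Trpc2, whose reads overlap those of Xntrpc, at 0 in each. The part of these other cells in the sense gene differences was not tested further. Without both libraries 26 members were called, 23 of them shared with the 24, and 29 sense genes, 24 of them shared with the 33. Marker levels also differed between strains. Those of macrophages (4 of 4 listed) were 27.6 to 39.7 CPM in 129, 66.8 to 100 in B6, 62.8 to 82.7 in SJL and 32.7 to 56.1 in SWR. Medians for glands were 2017, 642, 1196 and 866 CPM in the same order, with overlapping ranges. Those of mature vomeronasal sensory neurons were 2661, 2262, 2586 and 2547 CPM. The part of these differences in the strain calls was not tested. In whole tissue, fewer cells of a type and less RNA per cell cannot be told apart.

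A list of transcription factor genes, made from symbols of common families, held the sense genes of 37 members and left out others such as Dmrta2, Prox1, Prox2 and Bach2, so that its counts do not cover all such genes. On the list, 9 lncRNAs were tested and 2 called, Foxo6os and Zfp85os, and of 18 tested sense genes 1 was called, Otx2. The call of Otx2 was lost with background reads as a covariate (1.21, FDR 0.0676). For comparison, 30% of all tested members, 17.1% of all tested sense genes and 19.8% of all tested genes were called. Among 20 tested divergent members 6 were called, among 48 exon-overlapping members 14, among 8 with overlapping spans 3 and among 3 convergent members 1. No test compared these arrangements with each other or with the share of all members.

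To ask whether the genes of a pair varied together between mice of the same strain and sex, log2 of the normalized count + 1 was centred on each group of 4 and correlated over 32 libraries. With 100000 permutations within groups, none of the 76 pairs passed an FDR of 0.05, where 2.94% of all 5165 opposite-strand pairs did. At an unadjusted p below 0.05 there were 5 pairs by Pearson's r and 8 by Spearman's rho, counts not set against all pairs at that p. The median r was 0.02, with 40 pairs above 0 and 36 below, and it was 0.08 over all pairs. Lrp8os3 and Lrp8 had the highest value (r = 0.57, permutation p = 0.00699, FDR 0.126, rho = 0.48, permutation p = 0.0187, FDR 0.217), which was 0.54 without the 2 libraries farthest from the median of the lncRNA, 0.41 with a replicate block and 0.06 when centred by strain alone. Grip1os3 with Grip1 followed (r = 0.53, rho = 0.37, and r = 0.26 without the 2 libraries that stood apart) and then Tbx3os1 with Tbx3 (r = 0.49, rho = 0.42). The lowest values were those of Hk1os with Hk1 (r = -0.47, rho = -0.41), Rab26os with Rab26 (r = -0.38, rho = -0.31) and Atcayos with Atcay (r = -0.36, rho = -0.32). Centred by strain alone, r was -0.13 for Rab26os and -0.21 for Atcayos, and with a replicate block it was -0.04 for Rab26os. The 2 genes of a pair share library, depth and position.

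**Figure D5:**
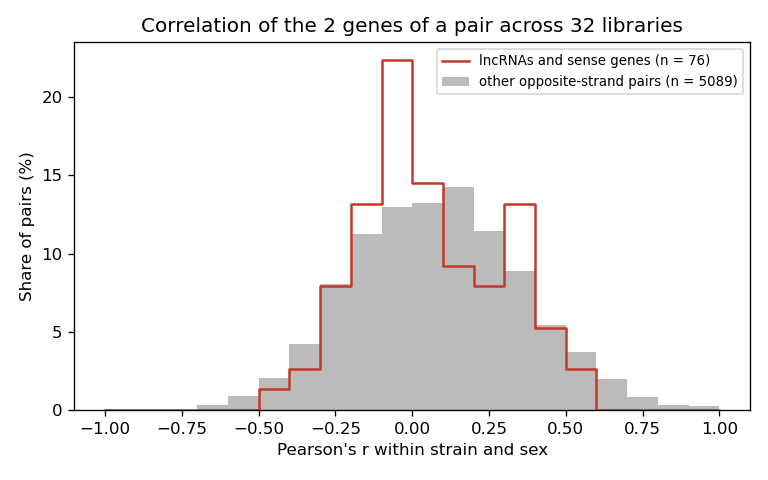
Share of pairs in percent (y axis) by Pearson's r within strain and sex (x axis, bins of 0.1) for 76 lncRNA and sense pairs (line) and the other 5089 opposite-strand pairs (bars). The members lie between -0.47 and 0.57, and none passed the FDR limit.

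Between the sexes, none of the 80 members and none of the 193 sense genes was called (absolute LFC above 1, FDR below 0.01, edgeR), where 0.0381% of all genes were. At an unadjusted p below 0.05 there were 12 members and 24 sense genes, and DESeq2 also called 0 of each. The share of all genes at an unadjusted p below 0.05 is not given, so these counts are not read as an excess. Pard3bos2 had the lowest FDR of the members, with an LFC of 0.27 ± 0.06 in males against females (FDR 0.0295), far below 2-fold. Macrod2 was the sense gene with the lowest FDR (-0.17 ± 0.04, FDR 0.0301). The interaction of sex and strain was called at an FDR below 0.05 for 0 members and 0 sense genes by edgeR, where 3 of all 18382 tested genes were. At an unadjusted p below 0.05 it had 3 members and 26 sense genes, again with no share of all genes to compare. The lowest FDR of a member was 0.301, and DESeq2 was not run for the interaction.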

How the data were processed

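Stranded, ribo-depleted total RNA libraries of individual VNO neuroepithelia were sequenced by the authors and, per the labels, processed with bcl2fastq, Trim Galore, STAR and DESeq2 on mm10. The deposited counts are uniquely placed reads per gene on the reverse strand, and the authors' normalized signal scales each count by its library's DESeq2 size factor. Reads of all strains were placed on 1 genome, derived from B6.

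Members were found by symbol and biotype, and positions and exon lengths came from GENCODE M21 (49326 genes matched by identifier). The members and gene lists were chosen with earlier results of these data known. Counts were tested with edgeR 4.0.16 (TMM, filterByExpr over 8 groups, strain + sex, quasi-likelihood F test) in R 4.3.3, with FDR by Benjamini and Hochberg over 18382 genes. Standard errors (SE) are approximate and follow from the LFC and its F value. Ratios were tested with limma 3.58.1 over 5165 pairs of tested genes on opposite strands that overlap or lie within 5000 bases, with a pseudocount of 1, which shrinks low ratios. Correlations were tested by permutation within groups, where 1e-05 is the smallest p that 100000 permutations can give. DESeq2 1.42.0 and other settings served as alternatives.

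On simulated data, the strain test recovered 193 of 200 changed genes with 2 false calls among 17851 genes, the ratio test 200 of 200 with 5 false calls, and the correlation test 19 of 20 with 0. The simulated counts had the same dispersion for all genes, no libraries that stood apart, and changes that all exceeded 2-fold. The planted correlations were in normally distributed values and stronger than any r of the members. The recovery therefore does not cover changes near 2-fold, weaker correlations or genes with few reads. Background reads were summed over 266 genes of families with no known role in the VNO. Slx1b, Slx4 and Slx4ip, which matched only by letters, and Pramef8, whose total was seen to dominate, were left out. Named genes were the 12 called members with the largest LFC, the 5 with the highest TPM, the 5 with the highest ratio in TPM, any called between sexes, the 8 called sense genes with the largest LFC, the 8 pairs with the largest called ratio difference, the 3 highest and 3 lowest correlations, and Mccc1os and Tmem51os1, each with its partner. Other members that the text names were chosen after their values were seen. Libraries of a group were separate mice, and no 2 agreed within sampling noise (chi-square per degree of freedom 3.03 or more in 48 pairs).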

Additional observations from a re-analysis of the deposited data

Results flagged for a closer look

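Of 224 groups of 8 libraries (56 named genes in 4 strains), 21 had 1 library whose distance to the next made up more of the group's range than Dixon's limit allows. Chance flags about 1 in 20 such groups, and no cause was tested.

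The highest library of its strain was 129_male replicate 1 for Speer4c (128 normalized counts, next 23.8), Erich2 (76.7, next 9.53), Plet1 (479, next 144) and Atcayos (13.1, next 5.81). B6_female replicate 1 was the highest for Speer4c (84.2, next 9.72), Erich2 (40.5, next 11.1) and Plet1 (333, next 69.9). Both libraries also had the highest levels of ciliated cell and gland markers, as given above. SWR_female replicate 2 was the highest for Nell1 (7.61, next 2.70), Speer4c (10.1, next 4.74), Atcayos (20.3, next 4.23) and Tmem51os1 (34.2, next 28.4). This library also had the most background reads of the SWR libraries (19.3 CPM, next 8.59). Without that library, Atcayos, which was not called, had an LFC of -1.77 in SWR against B6 and was called.

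Among other lncRNAs, Dmrta2os was high in SWR_female replicate 3 (7.96, next 4.74, 9 reads), Grip1os3 in SJL_female replicate 4 (12.6, next 7.31), Igf2os was at 0 in 129_male replicate 3 (next 2.19), and Brip1os was low in SJL_male replicate 4 (262.0, next 303). Among other sense genes, Tnfsf13 was high in SJL_female replicate 3 (45.4, next 33.2), as was Tmem51 in the same library (129.2, next 107), and Atcay in B6_female replicate 3 (526.2, next 425). The lowest libraries were 129_female replicate 4 for Cyp4x1 (241, next 273), SJL_female replicate 1 for Fam120a (2293, next 3256) and 129_male replicate 4 for Rab26 (3.32, next 11.7).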

How the results depend on the processing

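Without the filter on low counts, 138 of 284 members and 60 of 241 sense genes were called between strains (24 and 33 with the filter). With the filter and an FDR below 0.05 but no fold limit, 53 of 80 members and 160 of 193 sense genes were called. The share over all genes is not given for these settings, so the counts are not read as an excess. The DESeq2 Wald test called 24 members and DESeq2 size factors 24, and 33 and 32 sense genes. Adjustment for background reads left 23 members, 20 of them shared with the 24 (not called were Etaa1os with an LFC of 0.78 in place of 1.17, Plekhd1os with -1.01 in place of -1.20, Prox2os with -0.92 in place of -1.13 and Rsf1os2 with 0.96 in place of 1.04), and 28 sense genes, among which Csmd2 (LFC 0.51), Otx2 (1.21) and Plet1 (-1.56) were not called. Where B6 or SJL is compared with 129, that adjustment can hardly tell strain from background. Leaving out 1 library gave 25 to 29 members, of which 23 or 24 were the same genes. Between 81 and 84 members were then tested, and 1 to 4 of those called had not been tested with all libraries. Others were tested before and gained a call, Mypopos in 8 fits, Ttc39aos1 in 3 and Atcayos in 2. It gave 31 to 36 sense genes and 18 to 21 ratio pairs. Leaving out a replicate number of every group gave 23 to 26 members, 28 to 34 sense genes, 19 to 24 ratio pairs and 0 calls between the sexes. The call of Igf2 (SWR against SJL, LFC -1.003) was lost in 13 of 32 such fits with 1 library left out, that of Rsf1os2 in 5, and those of Igf2os and Lrp8os3 in 1 each (without SJL_female replicate 1 and 129_female replicate 2).

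Ratio pairs called were 20 with a pseudocount of 0.5, 14 with 5, 13 where both means reached 10 normalized counts (58 pairs), and 21 without the 2 libraries that stood apart, an alternative chosen after seeing the data. Correlations gave 0 calls under each of 4 alternatives, centred by strain alone, with a pseudocount of 5, without those 2 libraries and with a replicate block. For the 56 named genes, 479 of 500 values kept their direction and their side of the threshold, 15 lost a call, 6 gained one and 0 changed sign.

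Replicate numbers showed no pairing of the libraries: deviations of same-numbered libraries correlated by -0.28 to 0.44, above 0.1 in 21 of 112 pairs. For libraries of different number these were -0.41 to 0.40, above 0.1 in 69 of 336 pairs. With a replicate block, 25 members, 30 sense genes and 19 ratio pairs were called.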
